A study of Mus musculus with 15 samples.

Results

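BV2 is an immortalized mouse microglial cell line, and Trem2 is a lipid-sensing receptor of microglia and macrophages. The comparison described here asked how far the transcriptional response of BV2 cells to cholesterol loading differs between WT and Trem2-/- cells. For every gene, the response of Trem2-/- cells (foamy against non-foamy) was set against the response of WT cells, and the difference between both responses is the genotype by cholesterol interaction. All 15 libraries of the series entered the comparison, and it was fitted for 14237 of the 54390 genes in the tables. There were 4 libraries for each of both WT groups and for foamy Trem2-/- cells, and 3 for non-foamy Trem2-/- cells. Foamy cells had been kept overnight with soluble cholesterol at 20 μg per ml, and non-foamy cells in media alone. Soluble cholesterol is complexed with cyclodextrin, and media alone has none, so both agents cannot be told apart. The Trem2-/- line (labelled Trem2KO) was made by CRISPR in a Cas9-expressing BV2 clone and isolated by limiting dilution; the methods do not state how many clones entered the sequencing, so genotype and clone cannot be told apart. Nothing in the labels says that the libraries of a group came from separate cultures, and the p-values measure the spread between these libraries.

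Cells hold their cholesterol level with a pair of opposing programs. When sterol in the endoplasmic reticulum is low, SREBP2 is released and turns on the enzymes of cholesterol synthesis and uptake, and when sterol is plentiful, oxysterols activate the LXR receptors, which turn on genes of cholesterol efflux such as *Abca1* and *Abcg1*. In macrophages and microglia this pair is read from the transcripts as a cell's view of its own sterol load, and Trem2 is known for the handling of myelin and lipoprotein lipid in these cells.

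Libraries held 23538963 to 41683825 counted reads, with mitochondrial transcripts at 5.83% to 8.05% of counts. Levels are given in CPM, the count of a gene relative to the TMM-scaled library total, as mean ± s.d. All 12 myeloid markers were present, and of 23 markers of other brain and tissue cells 22 stayed under 1 CPM in every library and 12 were at 0. WT non-foamy replicate 3 had the fewest reads of the 15 libraries. *Trem2* (chromosome 17, 48346401 to 48354147), the targeted gene, was at 329, 345, 415 and 327 CPM in WT non-foamy, 337, 372, 400 and 383 in WT foamy, 232, 214 and 220 in Trem2-/- non-foamy and 227, 227, 218 and 226 in Trem2-/- foamy libraries. The Trem2-/- libraries all lay under the WT libraries, with and without cholesterol. The *Trem2* interaction was −0.06 on the log2 scale (s.e. 0.10, edgeR adjusted p = 0.825), and the transcript gap between the genotypes was −0.67 without and −0.73 with cholesterol. These counts do not measure the protein.

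The responses of the genotypes to cholesterol differed for 518 genes, 3.64% of those tested, at an adjusted p under 0.05 (edgeR quasi-likelihood test, Benjamini-Hochberg over all tested genes). Of these, 284 (1.99%) had a higher and 234 (1.64%) a lower response in Trem2-/- than in WT cells. These shares are the background for the counts of called list members below. Most differences were small: the median absolute interaction of these genes was 0.476 on the log2 scale, and 45 of them reached 1. At an unadjusted p under 0.05 there were 2463 genes. On either side of the threshold lay *Snrpb* (adjusted p = 0.04995) and *Ctu2* (adjusted p = 0.05014), both picked for that place after their values were seen. Scaled to total counts alone, without TMM factors, 565 genes were called and 70.3% of them were higher, against 54.8% here. The number of genes rested on single libraries. It fell to 201, 227 and 273 without Trem2-/- non-foamy replicates 1, 2 and 3, to 276 and 336 without Trem2-/- foamy replicates 1 and 3, to 238 without WT foamy replicate 2 and to 343 without WT non-foamy replicate 1. In none of the fits with 1 library left out did a called gene change the sign of its interaction.

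The 518 genes had one prevailing shape. The fitted responses had opposite signs in 516 of them, against 63.0% of all tested genes. The contrast itself favours opposite signs, so this share is a description of the shape and carries no test. Genes with a higher interaction had a median WT response of −0.27 and a median Trem2-/- response of 0.20 on the log2 scale. Genes with a lower interaction had 0.33 in WT and −0.17 in Trem2-/- cells. The WT response was the larger one, in absolute size, for 424 of the 518 genes (81.9%, against 57.7% of all tested genes). It passed its own test while the Trem2-/- response did not for 281 genes. Only the Trem2-/- response passed for 7, both passed for 12, and neither passed alone for 218. Over all tested genes, the WT response was called for 399 genes (2.8%), 237 higher (1.66%) and 162 lower (1.14%), and the Trem2-/- response for 20 (0.14%), 15 higher (0.105%) and 5 lower (0.0351%).

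**Figure D1:**
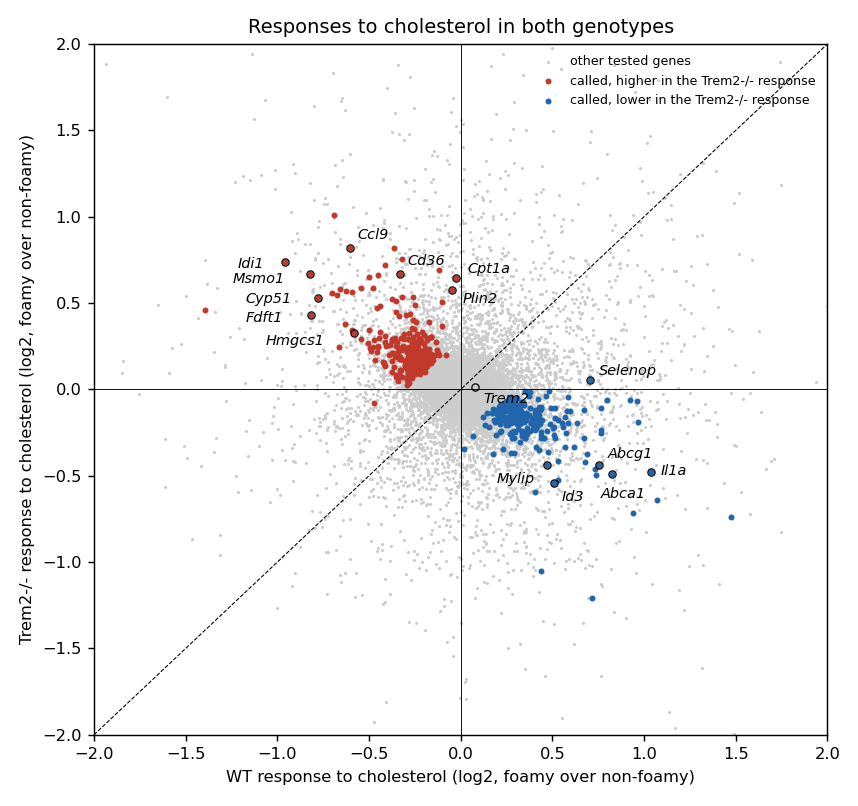
Response to cholesterol of each tested gene in WT (x axis) and Trem2-/- cells (y axis), as log2 fold change of foamy over non-foamy libraries. Red and blue points are the genes called higher and lower in the interaction, the dashed line marks equal responses, and 59 genes (6 of them called) lie outside the axes. Of the 518 called genes, 516 have responses of opposite sign, with the cholesterol synthesis genes *Idi1*, *Msmo1*, *Cyp51* and *Fdft1* far out on one side and *Abca1*, *Abcg1* and *Il1a* on the other.

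The group levels can also be read as a gap between the genotypes that changed with cholesterol. For 496 of the 518 genes (95.8%, against 68.5% of all tested genes) the gap was smaller with cholesterol than without. The median gap of the genes with a higher interaction, Trem2-/- over WT, was −0.73 without and −0.27 with cholesterol, and that of the genes with a lower interaction was 0.84 and 0.32. The highest mean was in WT non-foamy cells for 269 of the 284 genes with a higher interaction (against 33.3% of all tested genes). The lowest was in Trem2-/- non-foamy cells for 267 (against 30.7%). Among the 234 with a lower interaction, the lowest mean was in WT non-foamy cells for 227 (against 35.7%). Their highest mean was in Trem2-/- non-foamy cells for 222 (against 30.4%). For most of these genes the non-foamy groups were the extremes, with the foamy groups between them. The choice of the genes by this contrast favours these positions, so they carry no test. The ranges of the libraries of both states were apart in WT cells for 397 of the 518 genes (76.6%, against 9.71% of all tested genes), in Trem2-/- cells for 316 (61%, against 9.26%) and in both for 222 (42.9%, against 2.09%), which the choice of the genes by this contrast favours. Over all tested genes the gap was called for 6207 genes (43.6%) without and 4297 (30.2%) with cholesterol, so WT and Trem2-/- cells differed widely in both media. *Mst1* was counted in WT cells almost alone, at 5.96 and 6.5 CPM in WT non-foamy and foamy cells and 0.106 and 0.0456 in the Trem2-/- groups, and was picked after its values were seen.

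The sum of the responses, tested on the same libraries, is the average effect of cholesterol over both genotypes, and does not ask whether the genotypes moved alike. It was called for 2 genes (0.014%), *Cpt1a* and *Selenop*, both higher, with 660 at an unadjusted p under 0.05. Both genes were also called in the interaction. DESeq2 called 12 genes for the sum and 985 for the interaction. In arithmetic, exchanging the foamy and non-foamy labels of either genotype alone would turn the interaction into the sum, apart from its sign. The labels are the only record used here of which libraries received cholesterol. As labelled, the lipid droplet gene *Plin2* was higher in foamy than in non-foamy Trem2-/- libraries (292 to 328 against 205 to 212 CPM). In WT cells the *Plin2* libraries of both states overlapped. *Cyp51* was higher and *Abca1* lower in foamy than in non-foamy Trem2-/- libraries, each opposite to its direction in WT cells. An exchange of labels was not tested. *Selenop*, a secreted selenium carrier, was at 154, 160, 181 and 157 CPM in WT non-foamy, 217, 274, 294 and 278 in WT foamy, 929, 972 and 895 in Trem2-/- non-foamy and 998, 908, 861 and 1100 in Trem2-/- foamy libraries. The foamy WT libraries were all above the non-foamy ones, while those of Trem2-/- cells overlapped. *Selenop* and *Cpt1a* were named here after their values were seen.

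The enzymes of cholesterol synthesis had the highest median interactions of the 39 gene lists with 5 or more tested genes. Most of them fell with cholesterol in WT cells and had higher values with cholesterol in Trem2-/- cells, where their levels without cholesterol were lower than in WT. In the mevalonate pathway, which builds the isoprenoid units from acetyl-CoA, 7 of 9 tested enzymes had a higher interaction and none a lower one (background 1.99% and 1.64%), with a median of 0.91 on the log2 scale against 0 over all tested genes. In the steps from squalene to cholesterol it was 8 of 11 and none, with a median of 1.01. All 20 enzymes had a positive interaction, and all had fitted responses of opposite sign. The WT response of 15 enzymes was called, each lower, and the Trem2-/- response of 7 was called, each higher. With 1 library left out, the calls stayed between 6 and 8 in the mevalonate list and between 7 and 9 in the squalene list.

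The smallest p of all genes belonged to *Cyp51* (chromosome 5, 4081145 to 4104746), the sterol 14-demethylase. It was at 136, 130, 140 and 131 CPM in WT non-foamy and 74.6, 76.1, 78.1 and 83.5 in WT foamy libraries. In Trem2-/- cells it was at 41, 44.4 and 45.9 CPM without and 63.3, 61.5, 63.9 and 64.3 with cholesterol. The groups did not overlap, and cholesterol moved the genotypes in opposite directions from opposite ends. The WT response was −0.78 (s.e. 0.06, adjusted p = 1.56e-08), the Trem2-/- response 0.53 (s.e. 0.06, adjusted p = 7.76e-05) and the interaction 1.31 (s.e. 0.08, adjusted p = 3.1e-09), all on the log2 scale from edgeR. The genotype gap of *Cyp51* went from −1.62 to −0.30.

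*Idi1* (chromosome 13, 8885501 to 8892451), which isomerizes isopentenyl diphosphate, had the largest interaction of the synthesis enzymes, 1.70 (s.e. 0.14, adjusted p = 4.8e-08). Its levels were 51.1, 52.7, 55.6 and 51.1 CPM in WT non-foamy, 24.1, 26.4, 29.7 and 28.1 in WT foamy, 14.6, 13.9 and 12.1 in Trem2-/- non-foamy and 22.4, 21, 20.1 and 27 in Trem2-/- foamy libraries. In the foamy state the genotypes were close but only just overlapped, at 24.1 to 29.7 against 20.1 to 27 CPM. *Msmo1* (chromosome 8, 64718139 to 64733792), which removes methyl groups from the sterol ring, fell from 170 ± 6.87 to 95.9 ± 7.92 CPM in WT (n = 4 each) and rose from 55.5 ± 4.8 (n = 3) to 88.3 ± 6.21 (n = 4) in Trem2-/- cells. Its interaction was 1.49 (s.e. 0.10, adjusted p = 5.83e-09). *Fdft1*, the squalene synthase, fell from 90 ± 1.77 to 51 ± 2.16 in WT and rose from 39.3 ± 2.26 to 53 ± 2.99 in Trem2-/- cells, with an interaction of 1.25 (s.e. 0.09, adjusted p = 5.83e-09). Its exons overlap those of *Ctsb* for 18.3% of their length on the other strand, and *Ctsb* moved the other way. The strand setting of the counting is not stated.

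*Hmgcs1* (chromosome 13, 119690379 to 119708260), the synthase at the entry of the mevalonate pathway, had 92.8, 96.8, 90.8 and 99.3 CPM in WT non-foamy and 63.6, 61.4, 61.2 and 67.5 in WT foamy libraries. In Trem2-/- cells it had 43.5, 49.6 and 52.3 CPM without and 64.5, 58.8, 57.3 and 62.7 with cholesterol. Its interaction was 0.91 (s.e. 0.10, adjusted p = 4.32e-06), while its Trem2-/- response of 0.33 missed the threshold (adjusted p = 0.0765). Further enzymes with a higher interaction were *Fdps* (1.24), *Mvd* (1.22), *Acat2* (0.94), *Pmvk* (0.42), *Hsd17b7* (1.26), *Tm7sf2* (1.16), *Nsdhl* (1.01), *Sqle* (0.83) and *Sc5d* (0.64). Those that did not pass included *Lss* (0.49, adjusted p = 0.0609) and *Mvk* (0.44, adjusted p = 0.0795). The calls of *Tm7sf2* and *Pmvk* were lost in 12 and 1 of 22 alternative fits. *Fdps* shares exonic bases with neighbouring genes over 26.7% of its length, and *Gm3571* (chromosome 10, 93778660 to 93779719), with an interaction of 1.19 among the 10 smallest p, shares 54.3% of its transcript stretches of 50 bases with *Fdps* and similar genes. *Idi1*, *Acat2* and *Hmgcs1* share 25.3%, 39.1% and 11.6% of their stretches with other genes. Reads of these genes cannot be told apart there.

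Promoters of these enzymes are printed because the members moved together. They are taken from the RefSeq promoter table on GRCm38.p6, as the 250 bases before the RefSeq start, 5′ to 3′ on the gene's strand. The gene coordinates printed elsewhere come from another annotation, GENCODE. The windows of *Cyp51*, *Idi1* and *Msmo1* lie partly within those gene coordinates. The table held 16 of the 20 tested enzymes. Capitals mark the box CCAAT on either strand (ATTGG when reversed), bound by NF-Y, and the sterol element TCACNCCAC on either strand. *Cyp51* (chromosome 5, 4104698 to 4104947, minus strand), *Idi1* (chromosome 13, 8885356 to 8885605, plus strand), *Msmo1* (chromosome 8, 64733579 to 64733828, minus strand) and *Hmgcs1* (chromosome 13, 119690101 to 119690350, plus strand) stand for the synthesis enzymes. *Abca1* (chromosome 4, 53159896 to 53160145, minus strand) stands for the called genes of efflux, which moved the other way.
Cyp51: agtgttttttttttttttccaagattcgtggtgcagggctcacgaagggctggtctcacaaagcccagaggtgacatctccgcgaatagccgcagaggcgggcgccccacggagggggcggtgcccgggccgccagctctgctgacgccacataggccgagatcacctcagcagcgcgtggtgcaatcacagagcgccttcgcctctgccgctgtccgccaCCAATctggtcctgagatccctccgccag
Idi1: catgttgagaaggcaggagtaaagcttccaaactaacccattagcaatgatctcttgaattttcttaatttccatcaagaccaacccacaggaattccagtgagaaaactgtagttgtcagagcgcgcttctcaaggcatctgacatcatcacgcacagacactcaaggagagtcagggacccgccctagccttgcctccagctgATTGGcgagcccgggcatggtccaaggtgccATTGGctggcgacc
Msmo1: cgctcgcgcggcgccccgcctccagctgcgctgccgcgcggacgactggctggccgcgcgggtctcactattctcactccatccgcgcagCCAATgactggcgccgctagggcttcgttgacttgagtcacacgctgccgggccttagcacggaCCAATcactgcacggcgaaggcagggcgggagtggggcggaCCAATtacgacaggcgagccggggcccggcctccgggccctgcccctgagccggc
Hmgcs1: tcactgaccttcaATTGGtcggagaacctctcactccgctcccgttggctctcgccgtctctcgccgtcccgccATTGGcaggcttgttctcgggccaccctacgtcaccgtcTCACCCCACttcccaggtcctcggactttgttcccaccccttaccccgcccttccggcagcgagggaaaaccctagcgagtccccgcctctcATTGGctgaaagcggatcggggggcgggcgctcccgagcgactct
Abca1: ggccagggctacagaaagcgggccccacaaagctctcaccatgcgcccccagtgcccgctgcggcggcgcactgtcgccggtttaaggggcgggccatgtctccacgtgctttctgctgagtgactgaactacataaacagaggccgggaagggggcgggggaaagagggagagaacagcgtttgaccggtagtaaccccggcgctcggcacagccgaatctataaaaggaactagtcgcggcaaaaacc
A CCAAT box was found in 15 of the 16 matched synthesis enzymes (93.8%), *Acat2* being the exception, against 37.5% of the 27025 symbols in the table and 40.5% of the 9751 tested genes matched. Of the 11 matched genes of the LXR and efflux list, 5 held one. Among all matched genes called in the interaction the shares were 51.8% (114 of 220) for a higher and 42% (71 of 169) for a lower interaction. The sterol element in these letters was in 1 of the 16 enzymes, *Hmgcs1*, against 1.22% of all symbols. These are matches of letters within the windows and say nothing of binding.

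In the list of SREBP2 sensing and uptake, 3 of 10 tested genes had a higher interaction (background 1.99%) and none a lower one. *Stard4*, a carrier of free cholesterol between membranes, fell from 79.9 ± 1.61 to 56.2 ± 2.17 CPM in WT (n = 4 each) and was at 42.3 ± 3.44 (n = 3) and 50.9 ± 1.55 (n = 4) in Trem2-/- cells. Its interaction was 0.77 (s.e. 0.09, adjusted p = 1.07e-05). *Insig1*, which holds the SREBP complex in the endoplasmic reticulum, went the same way, at 75.5 ± 3.74 and 53.8 ± 1.83 in WT and 42.5 ± 2.71 and 49.6 ± 1.74 in Trem2-/- cells, with an interaction of 0.71 (s.e. 0.09, adjusted p = 3.31e-05). *Tmem97* had an interaction of 0.66 (adjusted p = 0.000153). The Trem2-/- response of each missed its own test (adjusted p = 0.179, 0.392 and 0.285). *Srebf2*, which encodes SREBP2 itself, had 0.44 (s.e. 0.16, adjusted p = 0.12).

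The called LXR and efflux genes moved opposite to the synthesis enzymes. Of 14 tested, 5 had a lower interaction (35.7%, against 1.64% of all tested genes) and none a higher one, with a median of −0.37. The other 9 were not called, and 2 of the 14 had a positive value. With 1 library left out the count was 4 without Trem2-/- non-foamy replicate 3 and 5 otherwise. *Abca1* (chromosome 4, 53030787 to 53159895), which exports cholesterol to apolipoprotein A-I, was at 34.8, 36.8, 28.9 and 36.5 CPM in WT non-foamy and 74.6, 59.4, 53.8 and 55 in WT foamy libraries. In Trem2-/- cells it was at 87.2, 78.4 and 82.4 without and 53.7, 62.9, 64.3 and 54.6 with cholesterol. Within each genotype the states did not overlap, and the foamy libraries of the genotypes overlapped, at 53.8 to 74.6 against 53.7 to 64.3 CPM. The WT response was 0.82 (s.e. 0.10, adjusted p = 3e-05), the Trem2-/- response −0.49 (s.e. 0.10, adjusted p = 0.0478) and the interaction −1.31 (s.e. 0.14, adjusted p = 4.32e-06).

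*Abcg1* (chromosome 17, 31057675 to 31117988), which exports cholesterol to HDL, was at 45, 45.1, 34.4 and 45.9 CPM in WT non-foamy and 83.2, 77.9, 60.3 and 66.9 in WT foamy libraries, and at 97.8, 94.3 and 106 without and 75.2, 81.4, 71.6 and 65.1 with cholesterol in Trem2-/- cells. Its interaction was −1.19 (s.e. 0.14, adjusted p = 2.25e-05), and its gap of 1.22 without cholesterol was 0.02 with it. *Mylip*, a ubiquitin ligase for lipoprotein receptors, rose from 21.3 ± 1.42 to 29.6 ± 1.81 in WT (n = 4 each) and fell from 38.8 ± 2.14 (n = 3) to 28.6 ± 1.04 (n = 4) in Trem2-/- cells, with an interaction of −0.91 (s.e. 0.11, adjusted p = 2.04e-05). *Arl4c* had −0.69 (adjusted p = 0.000104). *Apoe*, the lipoprotein that accepts exported lipid, had −0.45 (adjusted p = 0.0155) and kept a gap with cholesterol, 1.22 without and 0.77 with it. The receptors showed no detectable difference: *Nr1h3* (LXRα) had −0.30 (s.e. 0.14, adjusted p = 0.261) and *Nr1h2* (LXRβ) −0.17 (s.e. 0.13, adjusted p = 0.557). *Srebf1*, an LXR target for fatty acid synthesis, had −0.45 (s.e. 0.16, adjusted p = 0.121). In the list of intracellular sterol transport 1 of 15 was called, *Osbpl8* (−0.42), and *Npc1*, which passes cholesterol out of the lysosome, had −0.51 (adjusted p = 0.0731).

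**Figure D2:**
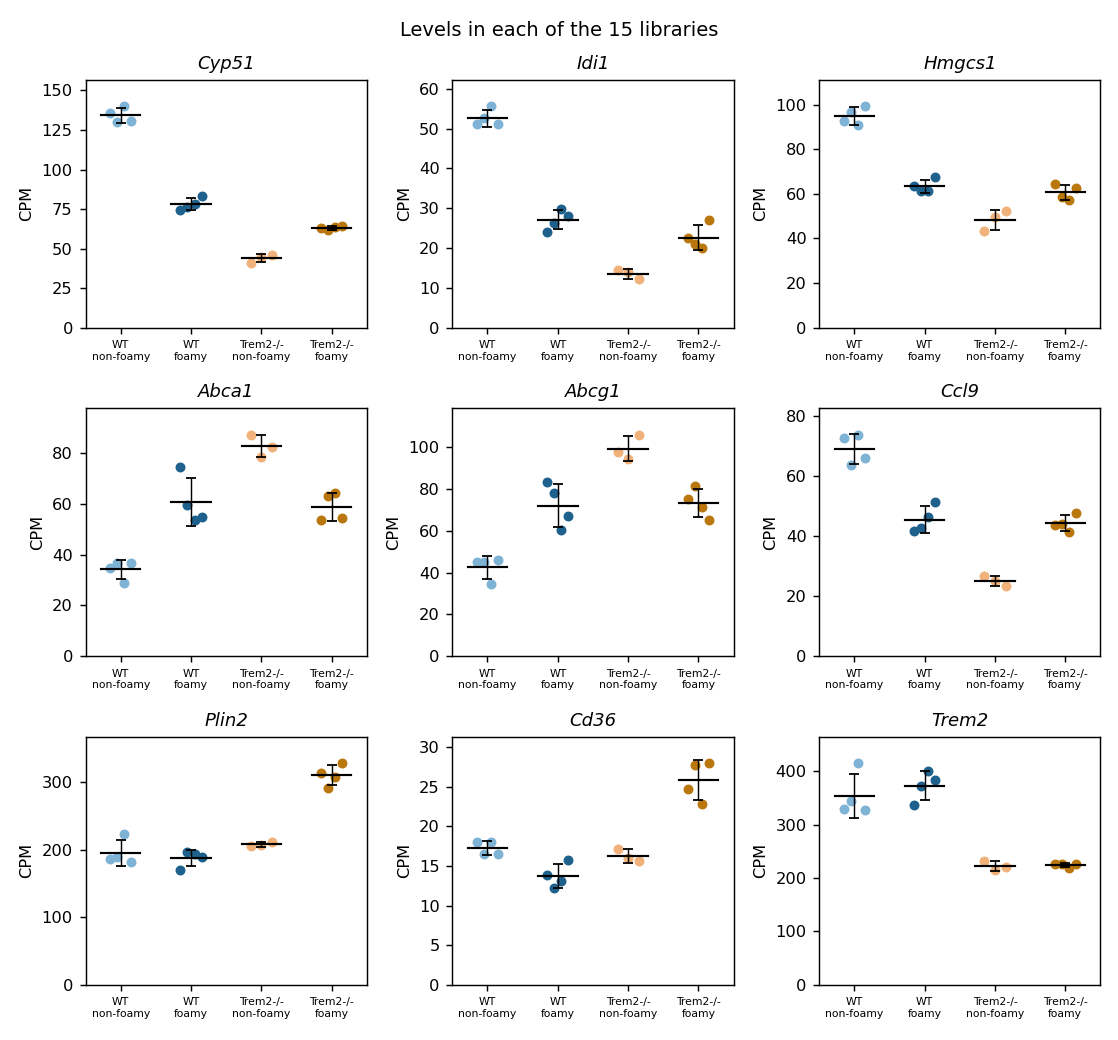
Level in CPM (y axis, from 0) of 9 genes in each of the 15 libraries, by group, with points for libraries, a line for the mean and bars for the s.d. *Cyp51*, *Idi1*, *Hmgcs1* and *Ccl9* are highest in WT non-foamy and lowest in Trem2-/- non-foamy libraries, *Abca1* and *Abcg1* the reverse, *Plin2* and *Cd36* stand out in Trem2-/- foamy libraries alone, and *Trem2* does not move with cholesterol.

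A small set of genes had the other shape, with a genotype gap that opened with cholesterol. The gap was larger with cholesterol for 22 of the 518 genes, and genes of lipid storage and fatty acid oxidation were among them. *Plin2* (chromosome 4, 86648386 to 86670060), which coats lipid droplets, was at 186, 189, 223 and 181 CPM in WT non-foamy, 170, 197, 194 and 189 in WT foamy, 205, 207 and 212 in Trem2-/- non-foamy and 314, 292, 307 and 328 in Trem2-/- foamy libraries. The Trem2-/- foamy libraries stood above all others. The Trem2-/- non-foamy libraries lay above every WT library except WT non-foamy replicate 3, at 223 CPM. The genotype gap without cholesterol was 0.10 and did not pass (edgeR adjusted p = 0.297). The WT response was −0.05 (adjusted p = 0.781), the Trem2-/- response 0.58 (s.e. 0.07, adjusted p = 0.000184) and the interaction 0.63 (s.e. 0.10, adjusted p = 0.000796).

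*Cd36* (chromosome 5, 17781690 to 17888801), a fatty acid and oxidized LDL receptor, was at 18, 16.5, 18 and 16.5 CPM in WT non-foamy, 13.8, 12.2, 13.1 and 15.8 in WT foamy, 17.2, 16 and 15.6 in Trem2-/- non-foamy and 24.8, 27.8, 22.8 and 28 in Trem2-/- foamy libraries. Without cholesterol the genotypes overlapped, and with it they did not, with a gap of 0.91. Its interaction was 0.99 (s.e. 0.14, adjusted p = 0.000141). *Cpt1a* (chromosome 19, 3322334 to 3385733), which admits fatty acids to mitochondria, was at 23.8 to 25.1 CPM in WT non-foamy, 23.2 to 24.8 in WT foamy, 28.3 to 30.1 in Trem2-/- non-foamy and 41.7 to 50.2 in Trem2-/- foamy libraries. Its WT response was −0.02 (adjusted p = 0.905), its Trem2-/- response 0.64 (s.e. 0.08, adjusted p = 7.76e-05) and its interaction 0.67 (s.e. 0.10, adjusted p = 0.000505).

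*Hilpda*, another lipid droplet protein, had an interaction of 0.48 (adjusted p = 0.0247), and *Slc25a20*, the carnitine carrier, 0.47 (adjusted p = 0.0466), a call lost in 17 of 22 alternative fits. Of the list of PPAR targets and fatty acid oxidation, 3 of 20 tested genes were called, all higher, with a median of 0.01, so most members did not follow *Cd36* and *Cpt1a*. Of 13 genes of lipid droplets and cholesterol esters, *Plin2* and *Hilpda* were higher and *Soat1*, which esterifies cholesterol, lower at −0.30 (adjusted p = 0.0446, lost in 13 of 22 fits). Of 11 fatty acid synthesis genes only *Elovl6* passed, at 0.55. Also with a wider gap, *Id3*, an inhibitor of basic helix-loop-helix factors, was at 12.8, 15.9, 18.2 and 15.6 CPM in WT non-foamy, 20.4, 22.5, 23.4 and 22.5 in WT foamy, 10.2, 10 and 12 in Trem2-/- non-foamy and 5.98, 8.52, 8.16 and 6.87 in Trem2-/- foamy libraries. None of its groups overlapped, and the interaction was −1.05 (s.e. 0.17, adjusted p = 0.000975). *Id3* was picked after its values were seen.

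Among genes of immune function, chemokines were the list that moved most. Of 11 tested ligands 3 had a higher interaction (background 1.99%) and none a lower one. All 11 had a positive value, and the median was 0.42. *Ccl9* (chromosome 11, 83572919 to 83578636), a monocyte attractant, was at 72.6, 63.6, 73.6 and 65.8 CPM in WT non-foamy and 41.5, 42.5, 46.3 and 51.3 in WT foamy libraries. In Trem2-/- cells it was at 26.7, 25.1 and 23.2 without and 43.5, 44, 41.3 and 47.7 with cholesterol. The foamy libraries of the genotypes overlapped while the non-foamy ones lay apart, at 63.6 to 73.6 against 23.2 to 26.7 CPM. The interaction was 1.42 (s.e. 0.11, adjusted p = 4.8e-08). *Ccl3* had 0.58 (s.e. 0.09, adjusted p = 0.000707), with 171 ± 10.2 and 127 ± 7.86 CPM in WT and 85.6 ± 2.38 and 95.8 ± 5.19 in Trem2-/- cells. *Ccl4* had 0.47 (adjusted p = 0.0476), a call lost in 14 of 22 alternative fits.

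Other immune lists held few calls. Of 18 genes of classical activation 2 were lower, *Il1a* and *Tnfaip3*, an inhibitor of NF-kB signalling (−0.53, adjusted p = 0.0416, lost in 12 of 22 alternative fits). *Il1a*, an alarmin cytokine, was low in WT cells, at 0.596, 0.741, 1.19 and 1.09 CPM without and 1.88, 1.64, 1.99 and 1.86 with cholesterol. In Trem2-/- cells it was at 9.26, 10.1 and 9 without and 7.09, 6.81, 7.56 and 5.72 with cholesterol, and its interaction was −1.52 (s.e. 0.25, adjusted p = 0.00113). The genotypes stayed apart in both states, by 3.40 and 1.89 on the log2 scale. *Oas3*, an interferon-induced synthetase, had an interaction of −1.001 (s.e. 0.20, adjusted p = 0.00768) and was the single call among 29 interferon-stimulated genes, of which 23 had a negative value (median −0.29). *Arg1* (chromosome 10, 24915221 to 24927484), a marker of alternative activation, was at 15 to 17.5 CPM in WT non-foamy, 13.8 to 14.7 in WT foamy, 108 to 123 in Trem2-/- non-foamy and 130 to 148 in Trem2-/- foamy libraries. Its gap between the genotypes was thus wide in both states, 2.83 and 3.29, and the interaction was 0.46 (s.e. 0.09, adjusted p = 0.00796). *Mrc1* kept a gap too, 1.94 and 1.69 (interaction −0.25, adjusted p = 0.0841). No gene of antigen presentation and none of the complement and Fc receptor list (16 tested each) passed in edgeR. At an unadjusted p under 0.05 there were 4 and 5, DESeq2 called 2 and 0, and with length and GC trends removed 4 and 2 were lower.

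Of microglial programs, the list of lipid-associated and disease-associated macrophages had 3 lower calls (background 1.64%) and no higher one among 24 genes (median −0.11). *Gpnmb*, a glycoprotein of lipid-laden phagocytes, was at 3770, 4100, 3490 and 3990 CPM in WT non-foamy, 5670, 5390, 4700 and 4540 in WT foamy, 7550, 7160 and 7650 in Trem2-/- non-foamy and 6500, 6880, 6180 and 5750 in Trem2-/- foamy libraries. The states did not overlap in either genotype, and the interaction was −0.64 (s.e. 0.12, adjusted p = 0.00312). *Atp6v0d2*, a macrophage subunit of the vacuolar proton pump, had −0.73 (s.e. 0.12, adjusted p = 0.00122) and *Ctsb* −0.38 (adjusted p = 0.0194). Several defining members of that list did not pass: *Spp1* had 0.13 (s.e. 0.11), *Lpl* 0.06 (s.e. 0.09) and *Fabp5* 0.06 (s.e. 0.12). Of 19 genes of the Trem2 receptor complex and its signalling 1 passed, *Ms4a7* (−0.55, adjusted p = 0.0338), and it lost its call in 8 of 22 alternative fits, namely the replicate block and each of 7 fits with a library left out. *Mertk*, a receptor for apoptotic cells, had −0.73 (adjusted p = 0.00099) and was the single call of 14 homeostatic microglia genes, and *Cd14*, a coreceptor for lipopolysaccharide, had 0.52 (adjusted p = 0.000296) and was the single call of 12 myeloid identity genes.

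A minority of lysosomal genes had a lower interaction, as the called efflux genes did. Of 41 hydrolases, proton pump subunits and membrane proteins, 9 had a lower interaction (background 1.64%) and none a higher one, and 35 had a negative value (median −0.21). *Psap*, the precursor of the saposins that help to degrade sphingolipids, was at 881, 1010, 825 and 969 CPM in WT non-foamy, 1340, 1310, 1100 and 1060 in WT foamy, 2080, 1900 and 2150 in Trem2-/- non-foamy and 1830, 1940, 1770 and 1620 in Trem2-/- foamy libraries. The WT states did not overlap, the Trem2-/- states did, and the interaction was −0.57 (s.e. 0.12, adjusted p = 0.0107). *Ctsk* had −0.47 (adjusted p = 0.013) and *Atp6v1b2* −0.36 (adjusted p = 0.0188). *Lamp1* had −0.20 (adjusted p = 0.181). The count of 9 fell to 2 without WT foamy replicate 2 and without Trem2-/- non-foamy replicates 1 or 2, and was 18 with length and GC trends removed.

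**Figure D3:**
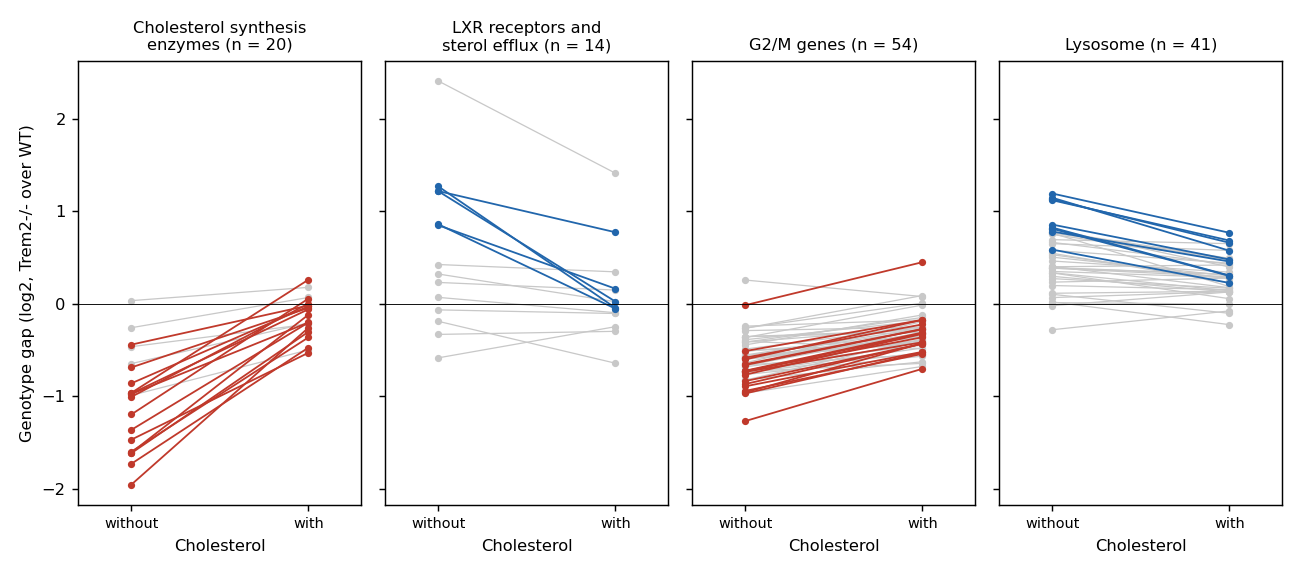
Genotype gap (y axis, log2 of Trem2-/- over WT) without and with cholesterol, with a line for each tested gene of 4 groups. Red and blue lines are genes called higher and lower in the interaction and grey lines are not called. The 20 synthesis enzymes start mostly well below 0 and the 14 LXR and efflux genes mostly above it, and the gaps of the called members of both are smaller with cholesterol, as are those of the called genes among the 54 G2/M genes (except *Cenpa*) and the 41 lysosomal genes.

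Some growth genes had a higher interaction, and none of the cell cycle genes listed a lower one. Of 54 G2/M genes 18 passed, all higher (33.3%, against 1.99% of all genes), and 52 had a positive value (median 0.28), and of 43 S phase genes 4 passed (median 0.21). The other 36 and 39 were not called. *Cenpa*, a centromeric histone, had 0.465, and its gap was −0.02 without and 0.45 with cholesterol. *Aurka*, a mitotic kinase, was at 109, 108, 100 and 109 CPM in WT non-foamy, 85, 81.6, 80.5 and 92.1 in WT foamy, 66.9, 60.9 and 64.9 in Trem2-/- non-foamy and 67.4, 69.3, 69 and 65.8 in Trem2-/- foamy libraries. The states did not overlap in WT and did in Trem2-/- cells. The WT response was −0.33 (adjusted p = 0.00249) and the Trem2-/- response 0.08 (adjusted p = 0.885), with an interaction of 0.41 (s.e. 0.09, adjusted p = 0.00971). *Cdk1* had 0.41 (adjusted p = 0.0177) and *Cenpf* 0.38 (adjusted p = 0.0192), while *Top2a* had 0.20 (adjusted p = 0.191), *Mki67* 0.17 (adjusted p = 0.435) and *Pcna* 0.28 (adjusted p = 0.114). The 18 calls fell to 5 without Trem2-/- non-foamy replicate 1, the 4 S phase calls to none without WT foamy replicate 2, and with length and GC trends removed they were 33 and 15.

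Of 17 cyclin and kinase genes 4 passed, all higher (background 1.99%). *Ccnd2*, a D cyclin, was at 54.8, 53.7, 43.5 and 59.6 CPM in WT non-foamy, 42.6, 40.4, 37.4 and 39 in WT foamy, 6.38, 7.43 and 6.26 in Trem2-/- non-foamy and 9.65, 7.12, 8.54 and 7.69 in Trem2-/- foamy libraries. The interaction was 0.72 (s.e. 0.15, adjusted p = 0.0107), and the gap of −2.99 without cholesterol was −2.27 with it. *Ccnd1* had 0.62 (s.e. 0.16, adjusted p = 0.0319), a call lost in 11 of 22 alternative fits, *Ccne1* 0.87 (adjusted p = 0.0301), lost in 7, and *Cdkn1a*, a cyclin kinase inhibitor, 0.44 (adjusted p = 0.0132), lost in 1. The 4 calls fell to 1 without Trem2-/- non-foamy replicate 1.

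In lists of biosynthesis and protein turnover all calls were higher, and most members were not called. Of 37 proteasome subunits 6 passed (background 1.99%, median 0.26), led by *Psmc5* (0.48, adjusted p = 0.00494). Of 38 ribosome biogenesis and Myc genes 7 passed (background 1.99%, median 0.23), led by *Odc1*, the first enzyme of polyamine synthesis (0.59, adjusted p = 0.000296). *Odc1* shares 24.3% of its transcript stretches of 50 bases with other genes. Of 77 mitochondrial ribosomal proteins 4 passed, with 74 positive values (median 0.25), and of 77 nuclear genes of oxidative phosphorylation 4 passed, with 72 positive values (median 0.19). Each is 5.19% of its list, against 1.99% called higher and 3.64% called in either direction among all genes. The 13 mitochondrially encoded genes and the 87 cytoplasmic ribosomal proteins had no call in edgeR (medians 0.02 and −0.09), with 1 and 3 at an unadjusted p under 0.05 and 0 and 1 called by DESeq2. Of the 87 cytoplasmic ribosomal proteins, 71 had a negative value. With length and GC trends removed, 4 of them were called lower and 2 higher. The counts of higher calls in the other lists were not stable. Without Trem2-/- non-foamy replicate 2 they were 2 for the proteasome, 2 for ribosome biogenesis, 0 for the mitochondrial ribosome and 1 for oxidative phosphorylation. With length and GC trends removed they were 20, 15, 19 and 12. The proteasome and mitochondrial ribosome counts were lowest without that library. Ribosome biogenesis was also at 2 without WT foamy replicate 2, and oxidative phosphorylation was at 1 without each of 7 single libraries. *Ndufa12* (0.80, adjusted p = 0.00708) and the pseudogene *Ndufa12-ps* (−1.49, adjusted p = 3.31e-05) moved in opposite directions, and 78.8% of the transcript stretches of 50 bases of the pseudogene occur in *Ndufa12*, so reads of both cannot be told apart there.

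Of 21 ERK feedback genes *Ier3* (0.36) was higher and *Atf3* (−0.49) lower, and of 15 p53 targets *Cdkn1a* and *Bax* (0.38) were higher. The calls of *Bax* and *Ier3* were lost in 12 and 6 of 22 alternative fits, and neither p53 target passed without Trem2-/- non-foamy replicate 1. Stress programs differed in their share of calls. Of 30 genes of the integrated stress response and amino acid supply, *Psat1* (0.44), *Mthfd2* (0.54) and *Asns* (0.39) were higher and *Ppp1r15a* (−0.46) lower. These calls were 13.3% of that list, against 3.64% of all tested genes. Of 23 genes of the unfolded protein response of the endoplasmic reticulum only *Sdf2l1* passed (0.46, adjusted p = 0.0115). That was 4.35% of its list. *Hspa5*, the chaperone BiP, had −0.01 (s.e. 0.08, adjusted p = 0.958), *Atf4* 0.14 (s.e. 0.08, adjusted p = 0.422) and *Ddit3* −0.57 (s.e. 0.19, adjusted p = 0.0909). One gene passed in each of the lists of heat shock (*Hspd1*, 0.36), NRF2 targets (*Gsr*, 0.65), iron (*Slc40a1*, −0.68), glycolysis and HIF targets (*Ndrg1*, −0.55), autophagy (*Atg13*, −0.36), scavenger receptors (*Colec12*, −0.47) and metalloproteases with their inhibitors (*Timp2*, −0.51). *Hspd1* shares 42.1% of its transcript stretches of 50 bases with other genes, and its call was lost in 10 of 22 alternative fits. The heat shock list had 0 calls with the replicate block and 4 with total counts alone, with DESeq2 or with length and GC trends removed. The calls of *Gsr*, *Atg13* and *Asns* were lost in 4 fits each and that of *Ppp1r15a* in 6. *Mmp12* had −0.11 (s.e. 0.15, adjusted p = 0.767).

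**Figure D4:**
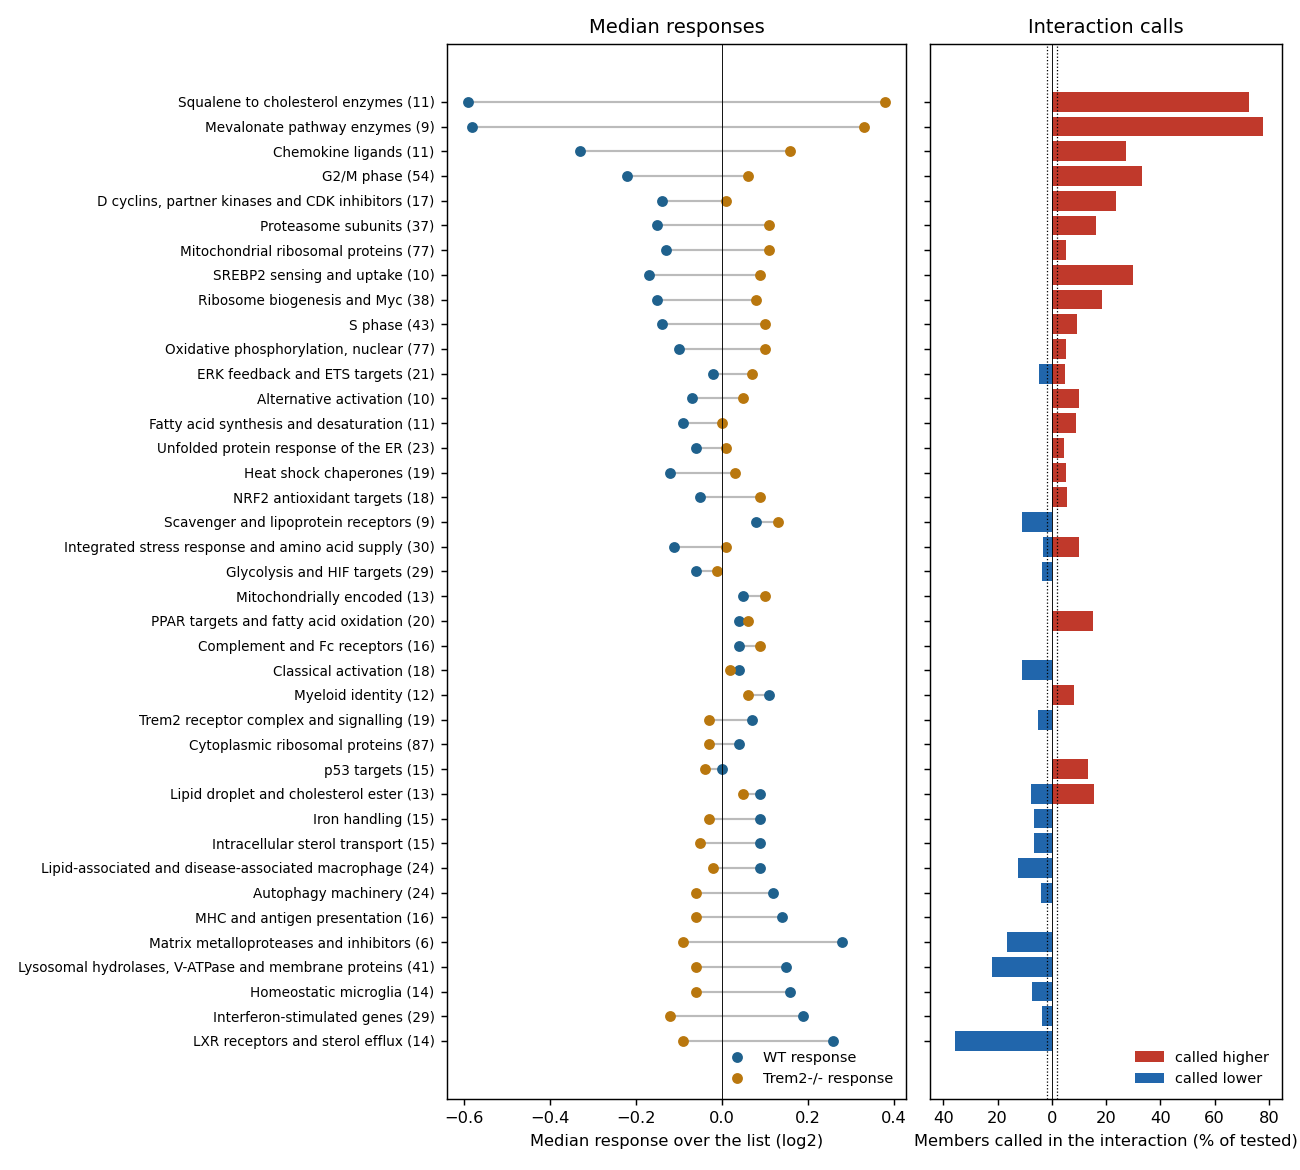
Median response to cholesterol of each of 39 gene lists (number of tested genes in brackets) in WT (blue) and Trem2-/- cells (orange), log2, on the left, and the percentage of its genes called higher (red) or lower (blue) in the interaction on the right, with dotted lines at the 1.99% and 1.64% of all tested genes. Lists are ordered by median interaction, with both synthesis lists at the top and the LXR and efflux list at the bottom.

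Lists held 114 of the 518 genes, 12.1% of the 942 listed genes tested, and 404 called genes were in no list (3.04% of the others). The lists were chosen with earlier results of these data known, so the difference between these shares carries no test. Of the 10 largest negative interactions, counting called genes whose mean reached 1 CPM, several belonged to genes of low level: *Tubb2b* (−1.71), *Rpl19-ps12* (−1.92), *Slc2a4* (−1.19), *Gm6325* (−1.09), beside the unnamed loci *1810034E14Rik* and *5830418P13Rik*. The calls of *Tubb2b*, *Rpl19-ps12* and *Slc2a4* were lost in 14, 10 and 12 alternative fits. The largest positive ones were *Eif3j2* (1.85) and *Gm36172* (1.70). *Eif3j2* shares 91.8% of its stretches of 50 bases with *Eif3j1* and other genes and lost its call in 15 fits, and *Gm36172* (chromosome 10, 24927619 to 24930059) begins next to *Arg1*. Genes with a higher interaction had a median exonic length of 2876 bases and those with a lower one 4977, against 3710 over all tested genes, while the median GC content was 48.8% and 49.2% against 49.3%. The part of transcript length in the calls was not tested beyond the fit with length and GC trends removed, in which 509 of the 518 genes stayed called.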

How the data were processed

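RNA from WT and Trem2-/- BV2 cells was sequenced as TruSeq libraries on a NovaSeq. Per the methods, the authors trimmed reads (Trimmomatic), aligned them to GRCm38 (HISAT2) and counted them per gene of the Ensembl annotation (featureCounts) within the CHURP pipeline. The deposited values are raw read counts per gene, with no normalization; the strand and multimapping settings are not given in the sources used here.

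Genes were kept by filterByExpr of edgeR 4.0.16 (R 4.3.3), scaled by TMM factors and fitted by glmQLFit with a mean for each group over all 15 libraries, and the contrasts were tested by glmQLFTest with Benjamini-Hochberg adjustment at 0.05. Standard errors came from the same fit. No pairing or batch term was used. Alternatives were RLE factors, total counts alone, other filters, a replicate block, DESeq2 1.42.0, a minimum of 1 on the log2 scale and each library left out; removal of length and GC trends was chosen after seeing the data. The fit was checked on simulated counts with known changes. Named genes were the 10 with the smallest p, the 10 largest positive and the 10 largest negative interactions of called genes whose mean reached 1 CPM, called list members (up to 8 a list, by p) with up to 3 uncalled ones that define it, *Trem2*, and genes the study names; any other is marked as picked after its values were seen. The members and lists were chosen with earlier results of these data known. Shared stretches of 50 bases and exonic overlaps came from the GRCm38 annotation. Libraries of the same group differed by more than counting noise. Their squared deviations were 5.82 to 43.8 times those of counting noise over 21 pairs, averaged over genes with at least 10 reads in the pair. Depth alone therefore does not set the precision of the values.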

Additional observations from a re-analysis of the deposited data

Results flagged for a closer look

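The difference between the responses of the genotypes was tested as an interaction term, which passed for 518 genes. The values for the 10 genes with the smallest p were 1.31 for *Cyp51*, 1.25 for *Fdft1*, 1.49 for *Msmo1*, 1.42 for *Ccl9*, 1.70 for *Idi1*, 1.24 for *Fdps*, 1.22 for *Mvd*, 0.91 for *Hmgcs1*, −1.31 for *Abca1* and 1.19 for *Gm3571*, on the log2 scale.

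In 5 of 87 groups of 4 libraries examined, a single library lay apart from the other three by Dixon's criterion, which chance reaches in about 1 group of 20. *Trem2* was at 218 CPM in Trem2-/- foamy replicate 3, against 226 to 227 in the others of that group. *Fdft1* was at 57.4 CPM in Trem2-/- foamy replicate 1, against 51.2 to 52. WT non-foamy replicate 3, the library with the fewest reads, held the other three: *Abcg1* at 34.4 CPM against 45 to 45.9, *Atp6v0d2* at 194 against 157 to 160, and *Aurka* at 100 against 108 to 109.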

How the results depend on the processing

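The interaction was called for 518 genes (284 higher, 234 lower) and for 524 with RLE factors, 565 with total counts alone, 600 with at least 10 counts in every library and 750 without a filter (352 lower). DESeq2 called 985 (567 higher, 418 lower), sharing 509 of the 518. With length and GC trends removed, an alternative chosen after seeing the data, 1278 were called (737 higher, 541 lower), and a minimum of 1 on the log2 scale left 45 (23 higher, 22 lower). With 1 library left out the count ran from 201 to 661 (98 to 373 higher, 103 to 288 lower). The sum of the responses was called for 2 genes, and for 36 without a filter, 12 by DESeq2, 5 with trends removed, 3 with total counts alone, 0 with the minimum on the log2 scale and 0 to 4 with 1 library left out. In these alternatives no called gene changed the sign of its interaction.

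With the replicate number as a block, 294 genes were called (156 higher, 138 lower), 291 of them among the 518, and the sum gave 0. Same-numbered libraries had correlations of deviations from −0.236 to 0.359, over 0.1 in 3 of 21 pairs. Differently numbered ones had −0.457 to 0.343, over 0.1 in 14 of 63 pairs. The highest value, 0.359, was between WT non-foamy and WT foamy replicate 3. The labels name no pairing, and these correlations cannot exclude one. With 1 library left out, the uncalled interactions of *Hspa5* (−0.033 to 0.00235) and *Fabp5* (−0.0303 to 0.106) changed sign, *Hspa5* without WT non-foamy replicate 2 or Trem2-/- foamy replicate 3 and *Fabp5* without WT non-foamy replicate 3. Of 124 called genes followed through the 22 alternative fits, 59 kept their call in each. These fits leave out the minimum of 1 on the log2 scale. The 124 were the called genes of the naming rule and those called for the sum. They also held called genes with a larger gap with cholesterol and a mean of at least 1 CPM, not all named here. Depth of 23538963 to 41683825 reads limits the genes near 1 CPM, and the spread of 3 or 4 libraries of unknown origin limits every p. The cause of these changes was not tested.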

Other observations

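*Ndufa12-ps*, a pseudogene that shares sequence with *Ndufa12*, was at 12.8 to 17.8 CPM in WT non-foamy, 16.7 to 21.5 in WT foamy, 22.1 to 30.7 in Trem2-/- non-foamy and 10.7 to 12.7 in Trem2-/- foamy libraries, with a Trem2-/- response of −1.05 (edgeR adjusted p = 0.000184). *Gm36172*, which begins next to *Arg1*, was at 2.23 to 3.56 CPM in Trem2-/- foamy and 0.562 to 1.77 in the other libraries. *Ndrg1*, the single call of the glycolysis and HIF list, fell by 0.38 in Trem2-/- cells (edgeR adjusted p = 0.0273), from 324, 338 and 351 CPM to 256, 281, 257 and 246. Its WT response had the other sign and did not pass, at 0.18 (edgeR adjusted p = 0.164), with 214 to 249 CPM without and 240 to 282 with cholesterol. These genes were chosen after their values were seen.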
